A study of Mus musculus with 6 samples.

Results

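The replication-dependent core histone genes and the linker histone genes were described in resting CD43- splenic B-cells from wt mice and from mice deficient for Eμ or for the 3′RR, and after culture with lipopolysaccharide (LPS). Members were all gene names of the count table that begin with Hist1h, Hist2h, Hist3h or Hist4h. They were 70 of 46963 gene names, of which 6 belonged to class H1, 20 to H2A, 19 to H2B, 12 to H3 and 13 to H4. Of the 70 members, 65 had at least 10 counts in at least 2 libraries and could be tested.

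Histones H2A, H2B, H3 and H4 form the core around which DNA is wound, and H1 binds the linker DNA between the cores. Cells make most of this protein while DNA is copied, from gene clusters whose mRNAs end in a short stem-loop in place of a poly(A) tail. The stem-loop binding protein Slbp holds this end during processing, export and translation, and the mRNAs are degraded when replication stops. LPS, from the cell wall of Gram-negative bacteria, drives resting B-cells into the cell cycle. The libraries were made from total RNA depleted of ribosomal RNA, so that mRNAs without a poly(A) tail were counted.

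RNA was sequenced from 6 libraries, 1 for each genotype and culture state. The genotypes were 129 wt mice, mice in a 129 background lacking the EμMAR region (the Eμ enhancer of the immunoglobulin heavy chain locus with its matrix attachment regions) and mice in a 129 background lacking the 3′RR (the super-enhancer at the 3′ end of that locus). Both deletions lie in the heavy chain locus and not in a histone cluster, and the mice were 8 to 12 weeks old, male and female. Stimulated cells received 5 μg per ml LPS for 2 days. Resting cells were cultured for 2 days without LPS according to the labels, whereas the methods describe them as taken before stimulation. The protocol text of the labels gives 5 mg per ml LPS. Each library was a pool of 2 mice by the labels, whereas the methods describe 4 mice and 2 pools per genotype, so that it is not certain which mice a library holds. With 1 library per group, comparisons of genotypes at rest or after LPS had no replicate check.

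Library depth ranged, over genes, from 9111974 to 21998587 counts. Levels are given as CPM, counts scaled to the library size after TMM (trimmed mean of M-values) correction. Over the 6 libraries, the B-cell markers Cd79a, Cd79b, Ms4a1, Pax5 and Cd22 ranged from 237 to 586, from 198 to 396, from 260.1 to 584, from 353 to 579.6 and from 155 to 398 CPM. The 7 erythroid markers summed to 3359, 20169.7 and 3869 CPM in the resting wt, Eμ- and 3′RR-deficient libraries and to at most 671 CPM after LPS. The 5 T-cell markers summed to at most 30.9 CPM and the 6 myeloid markers to at most 317 CPM, in the resting Eμ-deficient library for both. No marker of these lists was at 0 in every library. In bulk RNA, a change in the number of cells of a type and a change in RNA per cell cannot be told apart.

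The members lie in 4 clusters of the mouse genome (GRCm38, the mm10 build). The 56 Hist1 genes are on chromosome 13, the 10 Hist2 genes on chromosome 3, the 3 Hist3 genes on chromosome 11 and Hist4h4 on chromosome 6. Hist1h2al (chr13:51202727-51203065), which the annotation calls a processed pseudogene, lies far from the other Hist1 genes. Hist1h2aj and Hist3h2bb-ps are also annotated as pseudogenes. The annotated transcripts were between 312 and 7425 bases long, so that no level is compared between genes here and each gene is compared with itself across libraries.

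The stem-loop was searched in the longest annotated transcript of each member and was found in 45 of 70. It is shown because the letters of its stem (capitals), which closes a short loop (lower case), differ between H4 and the other classes. The commonest form occurred in 25 members of classes H1, H2A, H2B and H3 and in no H4 gene, and the second occurred in 7 H4 genes only. The third occurred in 6 members of H1, H2B and H3, and the last in the H4 genes Hist1h4j and Hist1h4b. The remaining 5 members had other loops on the first or second stem.
H1, H2A, H2B and H3 form: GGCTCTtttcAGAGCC
H4 form: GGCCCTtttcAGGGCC
form with another loop: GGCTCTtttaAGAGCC
second H4 stem: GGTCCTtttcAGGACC

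In 21 of the 45, the annotated transcript ended within 60 bases after the stem-loop. In Hist1h1d it went on for 4884 bases and in Hist4h4 for 2445 bases. Counts per gene do not separate transcripts that end at the stem-loop from longer ones. The members without a match include short models such as Hist1h2bl, of 381 bases.

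Promoters were taken from RefSeq (GRCm38.p6, from 250 bases before to 50 bases after the start) for the 62 members with an entry. The octamer ATTTGCAT (either strand) was found in 7 of 18 H2A and 6 of 16 H2B promoters and in no H1, H3 or H4 promoter, against 1.74% of the 32851 promoters in the table. The windows of the pairs Hist1h2ah and Hist1h2bk, Hist1h2ae and Hist1h2bg, and Hist1h2aa and Hist1h2ba overlap. Each pair holds the same octamer site, which is thus counted in both classes. CCAAT (either strand) was found in every H1, H2A, H2B and H3 promoter and in 3 of 12 H4 promoters, against 37.4% of all promoters. TATAAA (either strand) was found in 35 of 62 promoters, against 13.6% of all. The promoters of the 3 members with the largest fitted rise after LPS are printed with that of Hist3h2a, a member whose fitted value was below 0, with the octamer and CCAAT in capitals on either strand.
Hist1h3g promoter, chr13:23535168-23535467, plus strand: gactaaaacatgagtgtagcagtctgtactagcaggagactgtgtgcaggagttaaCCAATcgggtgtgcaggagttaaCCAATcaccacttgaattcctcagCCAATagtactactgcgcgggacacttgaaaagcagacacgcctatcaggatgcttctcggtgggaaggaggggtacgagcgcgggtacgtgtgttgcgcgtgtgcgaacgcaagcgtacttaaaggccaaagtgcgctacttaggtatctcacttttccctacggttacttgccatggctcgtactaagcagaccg
Hist1h4b promoter, chr13:23756687-23756986, plus strand: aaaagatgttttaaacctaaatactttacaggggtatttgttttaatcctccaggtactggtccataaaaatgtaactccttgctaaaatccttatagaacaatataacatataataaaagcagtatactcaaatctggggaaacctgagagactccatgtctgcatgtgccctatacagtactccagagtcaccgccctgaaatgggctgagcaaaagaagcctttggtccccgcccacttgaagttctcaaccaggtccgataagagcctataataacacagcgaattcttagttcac
Hist1h2bm promoter, chr13:21721794-21722093, plus strand: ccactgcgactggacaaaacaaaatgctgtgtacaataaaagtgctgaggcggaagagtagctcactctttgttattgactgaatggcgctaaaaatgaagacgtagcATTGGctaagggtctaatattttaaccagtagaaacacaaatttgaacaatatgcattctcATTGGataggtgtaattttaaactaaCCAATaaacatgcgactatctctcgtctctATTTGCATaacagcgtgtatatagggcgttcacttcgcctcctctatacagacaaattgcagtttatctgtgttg
Hist3h2a promoter, chr11:58954435-58954734, plus strand: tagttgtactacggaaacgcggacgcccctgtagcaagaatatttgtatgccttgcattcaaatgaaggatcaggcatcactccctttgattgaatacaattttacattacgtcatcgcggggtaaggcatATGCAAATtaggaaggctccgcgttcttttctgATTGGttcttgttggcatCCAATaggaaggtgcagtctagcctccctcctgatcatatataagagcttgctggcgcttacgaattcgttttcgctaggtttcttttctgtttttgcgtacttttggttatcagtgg

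Hist1h2bm and Hist3h2a both hold the octamer and CCAAT in this window, Hist1h3g holds CCAAT only, and Hist1h4b holds neither. These matches are letters in a window and say nothing of which factor was bound.

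Many members are close copies, and the authors counted reads that map to several places at 1 primary position. Of the 70 members, 51 shared at least 1 stretch of 150 bases with another member, the length of a read, and 21 shared over 50% of their length in this way. An example is the Hist2 cluster, where Hist2h2aa1 and Hist2h2aa2 encode the same H2A. Hist2h2aa2 received 5185 counts in the resting wt library and 38277 after LPS, while its copy Hist2h2aa1 received 0 and 4. Hist2h3c1 received 0 counts in all 6 libraries, and Hist2h3c2 received between 25 and 852. Hist2h3c1 shares 150-base stretches with Hist2h3c2 and Hist2h3b, so that its 0 counts set no limit on its level. Values of single copies are therefore uncertain, and sums over a class hold each read once.

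LPS culture was compared with rest to see how far the histone genes moved with B-cell activation. All 5 classes were higher after LPS in each genotype. The 70 members together took 0.364% (Wilson 95% interval 0.361 to 0.367%) of all gene counts in the resting wt library and 4.00% (4.00 to 4.01%) after LPS. In Eμ-deficient B-cells the share was 0.710% at rest and 3.32% after LPS, and in 3′RR-deficient B-cells 0.657% and 3.58%. Copies made by PCR are not separate molecules, so that these intervals hold counting error alone.

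On the CPM scale, the summed members rose 13.1-fold in wt, 4.73-fold in Eμ-deficient and 5.53-fold in 3′RR-deficient B-cells. The mean log2 ratio was 2.81 ± 0.79 (SD over 3 genotypes). An additive model of genotype and culture state (edgeR quasi-likelihood test, Benjamini-Hochberg adjustment over 14600 genes, threshold 0.05) called 63 of 65 tested members higher after LPS and 0 lower, where 19.7% of all genes tested were called higher and 21.1% lower. By the unadjusted p under 0.05, 64 members passed, 1 of them lower, where 50.3% of all genes passed in either direction. The residual of this model is the departure from additivity over genotypes, and its calls are not tests between mice.

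The median fitted log2 change of the members was 2.82, against -0.0666 over all genes tested. In 62 of 65 members every LPS library lay above every resting library, as in 25.1% of all genes. The members are short (median 462 bases, counted to the stem-loop where one was found, against 3004 bases for all genes). With the trend of the values on length removed, the mean log2 ratio of the sums was 1.98 and 61 members were called higher. Without the resting Eμ-deficient library, in which the sums of the erythroid and of the plasma cell markers were highest, the median fitted log2 change was 3.08. Of the plasma cell markers only Jchain was highest there, whereas Sdc1, Prdm1 and Xbp1 were highest in the Eμ-deficient LPS library.

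**Figure D1:**
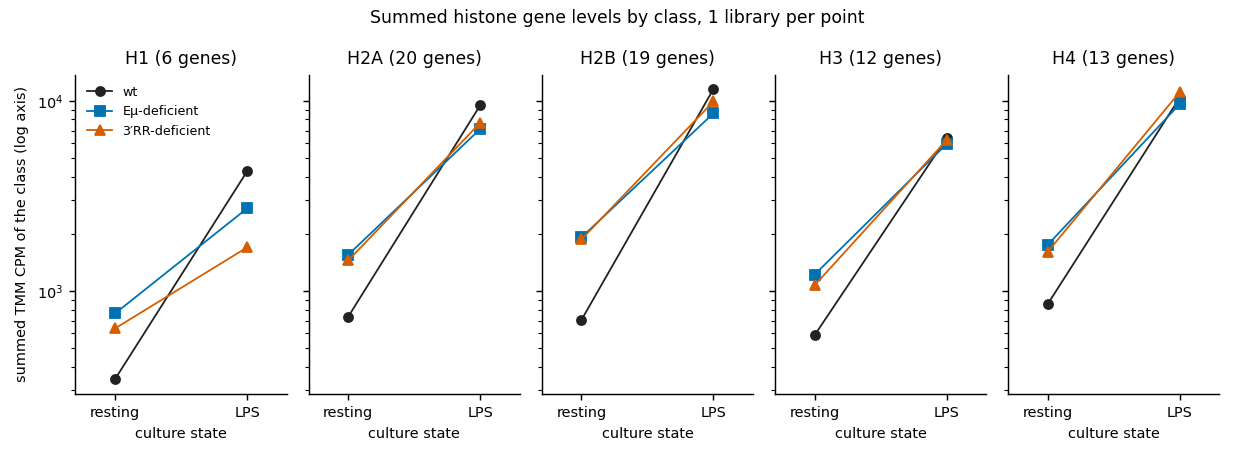
Summed TMM CPM of each histone class (log axis) in resting and LPS-stimulated B-cells, 1 library per point and 1 line per genotype. Every line rises, the wt library is the lowest of the resting libraries in all 5 classes, and the H1 sum of the 3′RR-deficient LPS library is the lowest of the LPS libraries at 1698 CPM.

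In the values that follow, runs of 3 are given in the order wt, Eμ-deficient, 3′RR-deficient, and fitted changes are log2 ± SE from the additive model with the edgeR adjusted p.

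Linker histones bind where DNA enters and leaves the nucleosome. The 6 H1 members summed to 345 CPM in the wt, 763 in the Eμ-deficient and 636 in the 3′RR-deficient resting library, and 4270.2, 2725 and 1698 CPM after LPS. All 5 tested members were called higher, with fitted log2 changes of 1.16 to 3.53. Hist1h1c, a somatic linker histone, had 165 CPM in the wt, 327 in the Eμ-deficient and 281 in the 3′RR-deficient resting library, and 830.3, 641 and 327 CPM after LPS. Its fitted change was 1.16 ± 0.40 (adjusted p = 0.0442), the smallest of its class. The call was lost under 7 of 16 alternatives, and the change was 0.29 with the length trend removed. In 3′RR-deficient B-cells its LPS library differed from the resting one by 0.22 on the log2 scale (interval 0.16 to 0.28).

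Hist1h1e had 81.3, 172 and 181 CPM at rest and 925, 692 and 413 CPM after LPS, with a fitted rise of 2.22 ± 0.44 (adjusted p = 0.00392). Hist1h1d had 56.8, 146 and 104 CPM at rest and 1032, 609 and 473 CPM after LPS, with a rise of 2.78 ± 0.45 (adjusted p = 0.00148). Hist1h1b had 23.5, 57.1 and 40.8 CPM at rest and 736, 369 and 328 CPM after LPS, with a rise of 3.53 ± 0.46 (adjusted p = 0.000562). For each of these 3 linker histones the LPS libraries did not overlap the resting ones, and the wt library was the lowest at rest and the highest after LPS. The testis linker histone Hist1h1t had between 1 and 6 counts per library and was not tested.

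Class H2A summed to 734 CPM in the wt, 1553 in the Eμ-deficient and 1450.4 in the 3′RR-deficient resting library, and 9517, 7139 and 7688 CPM after LPS. Of its tested members, 17 of 18 were called higher, with fitted log2 changes of -0.82 to 3.65 over the class. Hist2h2aa2 had 286 CPM in the wt, 353 in the Eμ-deficient and 426 in the 3′RR-deficient resting library, and 1832, 1809 and 1842 CPM after LPS. The 3 LPS libraries lay close together and far above the resting ones, and the fitted rise was 2.38 ± 0.29 (adjusted p = 0.000399). Hist1h2ak had 41.6, 142 and 84.6 CPM at rest and 1038, 717 and 645 CPM after LPS, and rose by 3.28 ± 0.46 (adjusted p = 0.000739).

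Hist1h2ap, whose sequence is largely shared with Hist1h2ao, had 65.1, 142 and 151 CPM at rest and 717, 641 and 889 CPM after LPS, and rose by 2.73 ± 0.33 (adjusted p = 0.000387). Hist1h2ab had 41.8, 159.9 and 100.4 CPM at rest and 1066, 559 and 546 CPM after LPS, and rose by 2.93 ± 0.53 (adjusted p = 0.00269). Hist1h2ak and Hist1h2ab were both highest in the wt LPS library, whereas Hist1h2ap was highest in the 3′RR-deficient one. Hist3h2a, an H2A gene outside the large clusters, had 5.84 CPM in the wt, 11.4 in the Eμ-deficient and 13.5 in the 3′RR-deficient resting library, and 5.46, 6.66 and 4.39 CPM after LPS. Its fitted change was -0.82 ± 0.34 (adjusted p = 0.0835) and did not pass the threshold. The level after LPS was below the resting level in each genotype, but in wt only within counting error (log2 ratio -0.0978, interval -0.49 to 0.30).

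Class H2B summed to 705 CPM in the wt, 1917 in the Eμ-deficient and 1871 in the 3′RR-deficient resting library, and 11569.6, 8624 and 9956 CPM after LPS, and 17 of 18 tested members were called higher (log2 0.42 to 3.90). Hist1h2bg had 114, 301 and 331 CPM at rest and 1611, 935 and 953 CPM after LPS, with a rise of 2.29 ± 0.47 (adjusted p = 0.00491). Hist2h2bb had 50.8, 243 and 114 CPM at rest and 1201, 1305 and 925 CPM after LPS, with a rise of 3.32 ± 0.44 (adjusted p = 0.000577). Both were far above rest in every genotype, and Hist2h2bb stood out at rest in the Eμ-deficient library. Hist1h2bq, whose sequence is largely shared with Hist1h2br, had 75.1, 235 and 241 CPM at rest and 1558, 969 and 724 CPM after LPS, with a rise of 2.62 ± 0.53 (adjusted p = 0.00447). Hist1h2bb had 69.3, 191 and 145 CPM at rest and 1332, 778 and 808 CPM after LPS, with a rise of 2.90 ± 0.45 (adjusted p = 0.00126). Both were lowest at rest and highest after LPS in wt.

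Hist1h2bm, among the 3 largest rises of all members, had 11.0 CPM in the wt, 34.1 in the Eμ-deficient and 50.6 in the 3′RR-deficient resting library, and 319, 305 and 662 CPM after LPS, a fitted change of 3.90 ± 0.38 (adjusted p = 0.000156). Hist1h2bc had 47.7, 94.1 and 90.9 CPM at rest and 458, 498 and 508 CPM after LPS, and rose by 2.71 ± 0.30 (adjusted p = 0.000239). Its 3 LPS libraries lay within a narrow range. Hist3h2ba had 2.15, 6.67 and 7.25 CPM at rest and 7.42, 14.5 and 19.8 CPM after LPS, with a fitted rise of 1.44 ± 0.28 (adjusted p = 0.00347), and its wt LPS library lay just above the highest resting library. Hist2h2be, an H2B gene known to yield polyadenylated mRNA in non-dividing cells, had 4.24 CPM in the wt, 2.73 in the Eμ-deficient and 6.42 in the 3′RR-deficient resting library, and 6.46, 4.50 and 6.19 CPM after LPS. Its libraries overlapped between states and its fitted change was 0.42 ± 0.31 (adjusted p = 0.313).

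Class H3 summed to 586 CPM in the wt, 1221 in the Eμ-deficient and 1073 in the 3′RR-deficient resting library, and 6386, 5953 and 6227 CPM after LPS. All 11 tested members were called higher (log2 2.26 to 4.20). Hist1h3g had 10.6 CPM in the wt, 29.1 in the Eμ-deficient and 18.7 in the 3′RR-deficient resting library, and 359.8, 318 and 315 CPM after LPS. With 4.20 ± 0.37 (adjusted p = 0.000103) its fitted rise was the largest of all members. Hist1h3b had 50.6, 191 and 73.0 CPM at rest and 1257, 892 and 699 CPM after LPS, and rose by 3.36 ± 0.47 (adjusted p = 0.000708).

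Hist1h3f had 126, 219 and 175 CPM at rest and 738, 906 and 792 CPM after LPS, and rose by 2.26 ± 0.28 (adjusted p = 0.000394). Hist1h3e had 112, 184 and 211 CPM at rest and 848, 802 and 741 CPM after LPS, and rose by 2.28 ± 0.31 (adjusted p = 0.000681). After LPS, Hist1h3f was highest in the Eμ-deficient and Hist1h3e in the wt library. Hist1h3c had 36.5, 101 and 129.7 CPM at rest and 666, 609 and 1191 CPM after LPS, and rose by 3.32 ± 0.37 (adjusted p = 0.000265).

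Class H4 summed to 855 CPM in the wt, 1753 in the Eμ-deficient and 1610.3 in the 3′RR-deficient resting library, and 10424, 9651 and 11162 CPM after LPS. All 13 members were tested and called higher (log2 2.17 to 3.93). Hist1h4b had 24.7 CPM in the wt, 69.9 in the Eμ-deficient and 51.8 in the 3′RR-deficient resting library, and 818, 541 and 729 CPM after LPS, with a rise of 3.93 ± 0.43 (adjusted p = 0.000249). Hist1h4d had 158, 318 and 289 CPM at rest and 2271, 1471 and 1888 CPM after LPS, and rose by 2.92 ± 0.38 (adjusted p = 0.000538). The wt library of both genes was the lowest at rest and the highest after LPS.

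Hist1h4h had 102, 231 and 209 CPM at rest and 1202, 1413 and 1821 CPM after LPS, and rose by 3.10 ± 0.32 (adjusted p = 0.000184). Hist1h4c had 181, 259 and 304 CPM at rest and 928, 1169.5 and 1209.6 CPM after LPS, and rose by 2.17 ± 0.27 (adjusted p = 0.000456). Unlike Hist1h4d, both were highest after LPS in the 3′RR-deficient library. Hist1h4n, a near copy of Hist1h4m, had 74.6, 174 and 171 CPM at rest and 1149, 934 and 809 CPM after LPS, and rose by 2.86 ± 0.39 (adjusted p = 0.000681). Hist4h4, the single member on chromosome 6, had 48.9, 68.0 and 98.6 CPM at rest and 760.1, 345 and 521 CPM after LPS, and rose by 2.89 ± 0.38 (adjusted p = 0.000564). Both were lowest at rest and highest after LPS in wt.

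**Figure D2:**
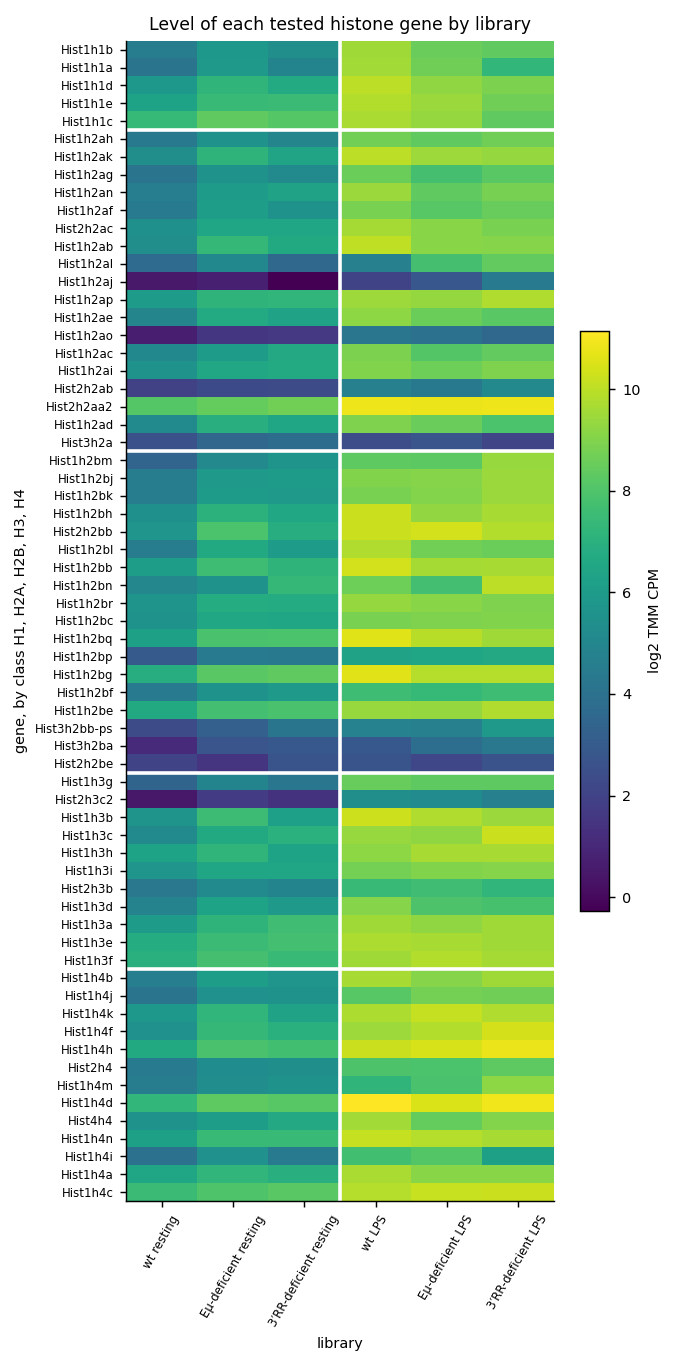
Log2 TMM CPM of the 65 tested members (rows, grouped by class and ordered by fitted LPS change) in the 6 libraries (columns). The LPS columns are brighter than the resting columns for nearly every gene, Hist2h2be is dark throughout, and Hist3h2a is no brighter after LPS.

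The rise was found in all 4 genomic clusters. All 53 tested Hist1 genes, 7 of 8 Hist2 genes, 2 of 3 Hist3 genes and Hist4h4 were called higher, with median log2 changes of 2.86, 2.84, 1.44 and 2.89. The 42 tested members with an annotated stem-loop had a median of 2.82 and the 23 without one 2.82. The 11 with an octamer in the promoter had a median of 2.93 and the 46 without it 2.84. These groups were not tested against each other. The 17 tested members that share no 150-base stretch with another had a median of 2.89, and 15 of them were called higher. Besides Hist1h1t, the testis genes Hist1h2ba and Hist1h2aa had at most 3 counts in any library and were not tested, like Hist2h2aa1 and Hist2h3c1.

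**Figure D3:**
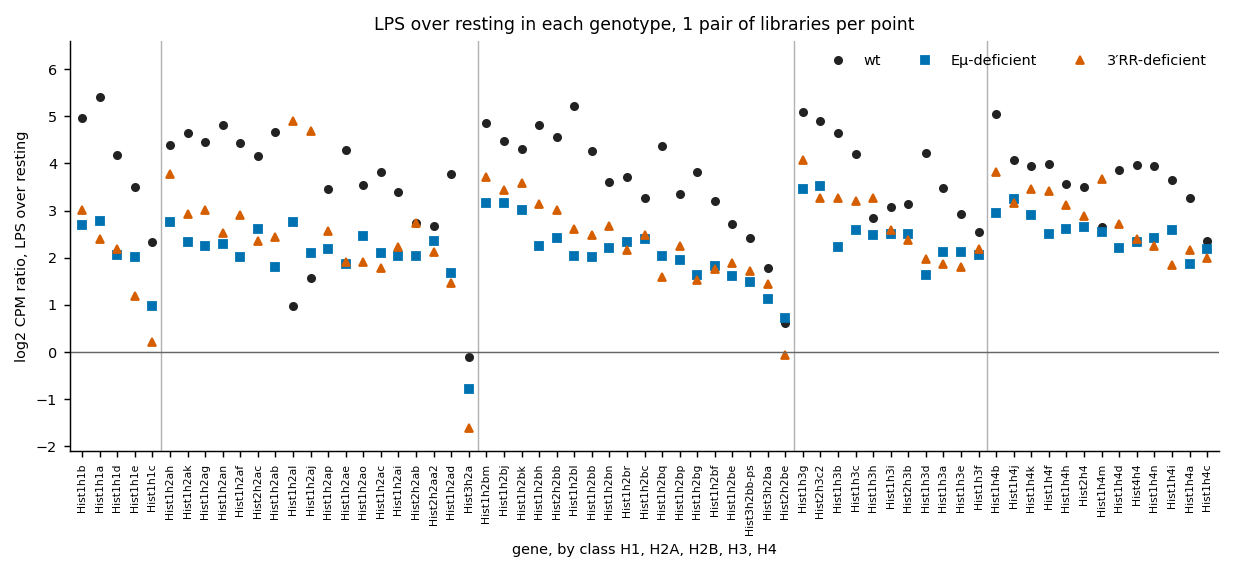
Log2 CPM ratio of LPS over resting for each tested member, 1 pair of libraries per point, in wt, Eμ-deficient and 3′RR-deficient B-cells. The wt point is the highest for 60 of 65 members, Hist1h2al, Hist1h2aj, Hist1h4m and Hist1h3h are highest in 3′RR-deficient and Hist2h2be in Eμ-deficient B-cells.

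The size of the rise was not alike in the 3 pairs of libraries. The median log2 ratio over members was 3.82 in wt, 2.24 in Eμ-deficient and 2.48 in 3′RR-deficient B-cells, where the median of all genes was -0.0809, -0.000338 and -0.0853. The rise was largest in wt for 60 of 65 members, as for 37.4% of all genes. The H1 sum rose 12.4-fold in wt, 3.57-fold in Eμ-deficient and 2.67-fold in 3′RR-deficient B-cells. The H4 sum rose 12.2-, 5.51- and 6.93-fold, and the H2B sum 16.4-, 4.50- and 5.32-fold. The gap between genotypes was narrower with the counts scaled by the spike-in RNAs, where the summed members rose 7.54-, 5.32- and 5.53-fold and the H4 sum 7.03-, 6.19- and 6.93-fold. On that scale the rise was largest in wt for 42 of 65 members, against 8.6% of all genes. With 1 library per group, the difference between genotypes was not tested.

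In resting B-cells, the histone genes were higher in both deficient libraries than in wt. The summed members were 2.24-fold higher in the Eμ-deficient and 2.06-fold higher in the 3′RR-deficient library, which is 1.16 (1.15 to 1.18) and 1.04 (1.03 to 1.06) on the log2 scale, with the interval in brackets. Bracketed intervals beside ratios to wt are at 95% by the exact Clopper-Pearson method, hold counting error alone and compare libraries, not genotypes. The wt library was the lowest of the 3 for 62 of 65 members, as for 35.7% of all genes. The median log2 ratio over members was 1.26 for Eμ-deficient and 1.06 for 3′RR-deficient B-cells, against 0.0334 and 0.0152 over all genes.

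A log2 ratio to wt of at least 1 was found for 43 members in the Eμ-deficient and 39 in the 3′RR-deficient resting library, where 12.6% and 5.38% of all genes reached it. With the GC trend removed the counts were 61 and 46 members, against 13.8% and 5.33% of all genes. With the length trend removed they were 22 and 26, against 13.1% and 4.93%. Class H2B stood highest, at 1.44 (1.41 to 1.47) for Eμ and 1.41 (1.38 to 1.44) for 3′RR deficiency on the log2 scale. The other 4 classes lay between 1.04 and 1.15 for Eμ-deficient and between 0.87 and 0.98 for 3′RR-deficient B-cells. With the GC trend removed, H2B had 1.83 and H2A 1.80 for Eμ deficiency, and 1.49 and 1.22 for 3′RR deficiency. Hist2h2bb led in the Eμ-deficient library at 2.26 (2.15 to 2.36) and Hist1h2bn in the 3′RR-deficient library at 2.35 (2.23 to 2.48), 2 genes chosen after their values were seen. Hist2h2be was the single member below wt in the Eμ-deficient library, at -0.64 (-1.25 to -0.0482).

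The scaling moved these ratios. With the counts scaled by the spike-in RNAs, the log2 ratio of the summed members was 0.35 for Eμ-deficient and 0.80 for 3′RR-deficient resting B-cells. With the trend on GC content removed it was 1.73 and 1.21, and with the trend on length removed 0.76 and 0.88. Other measures moved with genotype too. The 7 erythroid markers summed to 20169.7 CPM in the Eμ-deficient resting library, against 3359 in wt and 3869 in the 3′RR-deficient one, where the histone sum was also higher. The 4 plasma cell markers summed to 174, 1868 and 227 CPM in the resting wt, Eμ- and 3′RR-deficient libraries. Jchain alone had 113, 1737 and 171 CPM of these. Xbp1 had 43.4, 91.4 and 44.7 CPM. Sdc1 and Prdm1 were above wt in the Eμ-deficient and below it in the 3′RR-deficient library. The part of erythroid and plasma cells in the histone levels was not tested.

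After LPS the order was different. The log2 ratio of the summed members to wt was -0.31 (-0.31 to -0.30) for Eμ-deficient and -0.20 (-0.20 to -0.19) for 3′RR-deficient B-cells. The wt library was the highest of the 3 for 34 of 65 members, as for 31.7% of all genes. The median over members was -0.22 and -0.19. For 3′RR-deficient B-cells the sign of the sum depended on the scaling, with 0.35 under spike-in scaling and -0.95 with the GC trend removed.

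**Figure D4:**
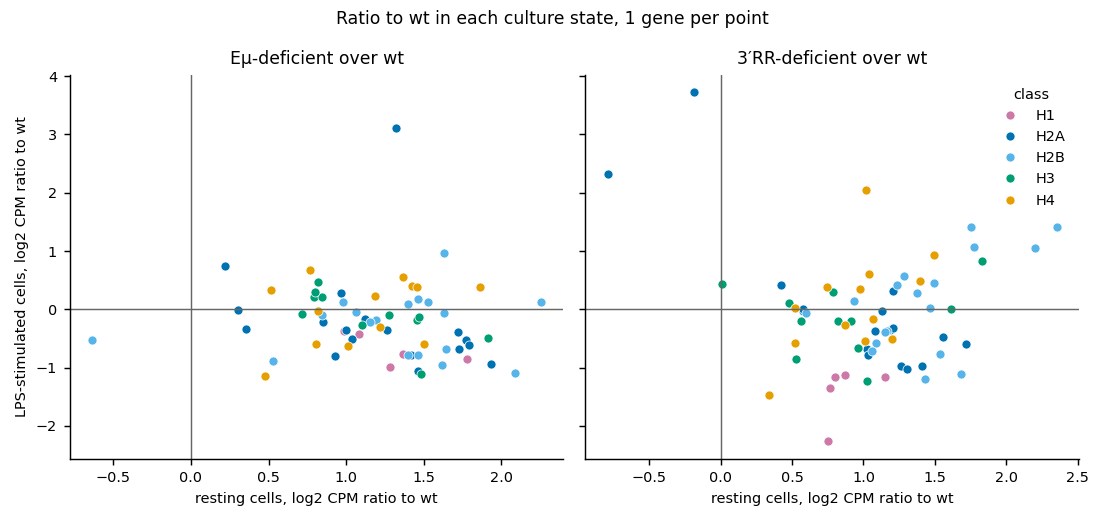
Log2 CPM ratio to wt of each tested member in resting (horizontal axis) and LPS-stimulated B-cells (vertical axis), 1 gene per point, coloured by class, for Eμ-deficient (left) and 3′RR-deficient B-cells (right). Nearly all points lie right of 0 on the horizontal axis, and the 5 H1 genes are below 0 on the vertical axis in both panels.

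The H1 class was the lowest after LPS in both deficient genotypes. In Eμ-deficient B-cells its distance from the next class depended on the processing. Relative to wt, its log2 ratio stood at -0.65 (-0.67 to -0.63) for Eμ and -1.33 (-1.36 to -1.31) for 3′RR deficiency, while H4 had -0.11 (-0.12 to -0.10) and 0.10 (0.0878 to 0.11). The sign of the latter depended on the processing, since it was -0.75 with the GC trend removed. For Eμ deficiency, the next class after H1 was H2B, at -0.42. With the GC trend removed, H1 had -0.80 and H2A -0.68 for Eμ deficiency. With the length trend removed they had -0.73 and -0.72. Over members with no shared stretch, H1 had -0.72 and H4 -0.67 for Eμ deficiency. H1 took 10.1% of the member CPM in the wt LPS library, 7.99% in the Eμ-deficient and 4.62% in the 3′RR-deficient one. At rest these shares were 10.7%, 10.6% and 9.58%.

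Measured against the other members of the same libraries, a difference that library scaling does not enter, H1 in 3′RR-deficient LPS-stimulated B-cells was lower by a log2 ratio of -1.22. It was -0.91 with the GC trend removed, -1.20 with the length trend removed and -1.19 over members that share no 150-base stretch. The H1 genes had the lowest median GC content of the classes (55.6%, against 61.1% over all tested members and 49.1% over all genes). The trend of the counts on GC content, at the median member, stood at a log2 deviation of 0.47 in the 3′RR-deficient LPS library, −0.10 in the Eμ-deficient and −0.35 in the wt one. The part of GC content in the H1 difference beyond this was not tested.

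All 5 tested H1 genes were below wt there. Hist1h1a, named after its values were seen, had 17.6 CPM in the wt, 60.6 in the Eμ-deficient and 29.7 in the 3′RR-deficient resting library, and 747, 413 and 156 CPM after LPS, a log2 ratio of -2.26 (-2.34 to -2.18) in the 3′RR-deficient LPS library. The ratios of Hist1h1c, Hist1h1b, Hist1h1e and Hist1h1d there were -1.34, -1.16, -1.16 and -1.13. A log2 ratio of at most −1 was found for 10 of 65 members in this library, where 10.7% of all genes reached it, and for 4 in the Eμ-deficient one, where 3.4% did. The latter were Hist4h4, Hist1h3d, Hist1h2bl and Hist1h2an. With the GC trend removed the counts were 32 and 12 members, against 7.62% and 3.58% of all genes. With the length trend removed they were 9 and 13, against 11.7% and 4.22%.

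Above wt after LPS lay 20 of 65 members in the Eμ-deficient and 27 in the 3′RR-deficient library, against 7607 and 8022 of the 14600 genes. In the 3′RR-deficient library the count was 43 under spike-in scaling and 11 with the GC trend removed. The following 5 members were chosen for their values in that library after these were seen. The pseudogene Hist1h2al had 13.2 CPM in the wt, 32.9 in the Eμ-deficient and 11.6 in the 3′RR-deficient resting library, and 25.9, 223 and 343 CPM after LPS, log2 ratios to wt after LPS of 3.11 (2.97 to 3.25) and 3.73 (3.60 to 3.86). It shares no exact 150-base stretch with the longest annotated transcript of another member. Whether reads of other members were counted there was not tested. The pseudogene Hist1h2aj, which shares most of its length with other H2A genes, had 1.43, 1.67 and 0.827 CPM at rest and 4.26, 7.13 and 21.4 CPM after LPS.

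Hist1h4m had 23.3, 39.6 and 47.2 CPM at rest and 145, 231 and 599 CPM after LPS. In the 3′RR-deficient LPS library its log2 ratio to wt was 2.04 and that of its near copy Hist1h4n -0.51. Of the 150-base stretches of Hist1h4m and Hist1h4n, 85.8% and 77.2% are shared. The values of the single copies are therefore uncertain, and an exchange of reads between them was not tested. Hist1h2bn had 32.0, 46.1 and 163 CPM at rest and 389.9, 212 and 1043 CPM after LPS and was the highest in the 3′RR-deficient library in both states. Hist3h2bb-ps had 5.18, 9.32 and 17.7 CPM at rest and 27.7, 26.0 and 58.3 CPM after LPS. In the Eμ-deficient LPS library both genes lay below wt, at -0.88 and -0.0931 on the log2 scale. A log2 ratio to wt of at least 1 after LPS was found for 7 members in the 3′RR-deficient library, where 15.9% of all genes reached it, and for 1, Hist1h2al, in the Eμ-deficient one, where 9.12% did.

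Over both states together, the additive model called 0 members for Eμ deficiency and 0 for 3′RR deficiency, where 1.16% and 0.678% of all genes were called. By the unadjusted p under 0.05, 5 and 11 members passed, against 8.68% and 5.69% of all genes. DESeq2's Wald test called 0 and 5, the latter Hist3h2ba, Hist3h2bb-ps, Hist1h2bm, Hist1h2bn and Hist1h4m, all higher. The share of all genes that this test called is not given, so that the 5 cannot be set against a general rate. The fitted 3′RR change of Hist1h2bn was 1.83 ± 0.40 (adjusted p = 0.118) and that of Hist3h2ba 1.56 ± 0.34 (adjusted p = 0.118). The count depended on the wt libraries. Without the wt LPS library, where the wt group is left with its resting library, 40 members were called higher for Eμ and 24 for 3′RR deficiency, where 5% and 0.69% of all genes were called higher. Without the wt resting library 2 and 16 were called, 1 and 10 of them lower, where 2.9% and 10.7% of all genes were called in either direction.

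Genes that act on histone mRNA and protein were followed beside the members. Of 26 genes for histone mRNA processing and control, 15 were called higher and 2 lower after LPS (median log2 0.78). Of all genes tested, 19.7% were called higher and 21.1% lower. Slbp had 30.6 CPM in the wt, 47.0 in the Eμ-deficient and 42.5 in the 3′RR-deficient resting library, and 157, 88.4 and 77.8 CPM after LPS, and rose by 1.37 ± 0.33 (adjusted p = 0.00971). Npat, the coactivator of histone gene transcription, had 17.2, 21.6 and 19.1 CPM at rest and 37.4, 33.5 and 25.1 CPM after LPS, and a fitted rise of 0.72 ± 0.24 (adjusted p = 0.0402), a call lost under 7 of 16 alternatives. Casp8ap2, a partner of Npat in histone locus bodies, had 24.7, 24.8 and 29.4 CPM at rest and 76.2, 53.3 and 52.0 CPM after LPS, and rose by 1.18 ± 0.24 (adjusted p = 0.00493). The fitted rises of these 3 genes were below the median of the members.

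Ccna2, the S-phase and G2 cyclin, had 6.89, 16.2 and 10.2 CPM at rest and 157, 130.1 and 145 CPM after LPS, and rose by 3.77 ± 0.33 (adjusted p = 0.000103). Ccne2, a cyclin of S-phase entry, had 1.38, 6.97 and 2.97 CPM at rest and 41.6, 26.1 and 21.1 CPM after LPS. It rose by 3.13 ± 0.51 (adjusted p = 0.00163). Zcchc11, a uridylyltransferase linked to histone mRNA decay, had 108, 98.2 and 108 CPM at rest and 59.3, 58.4 and 40.0 CPM after LPS, and fell, with -1.01 ± 0.24 (adjusted p = 0.0097). Srrt, a cap-binding complex partner, had 0.44 ± 0.26 (adjusted p = 0.198) and did not pass.

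Of 24 histone chaperone genes, 16 were called higher and 1 lower (median 1.33), against 19.7% and 21.1% of all genes. Chaf1a, a subunit of the assembly factor that loads H3 and H4 behind the fork, had 6.72, 6.29 and 8.66 CPM at rest and 59.5, 53.9 and 95.2 CPM after LPS, and rose by 3.24 ± 0.24 (adjusted p = 6.7e-05). Asf1b, which hands H3 and H4 to it, rose by 2.74 ± 0.26 (adjusted p = 0.000134). Npm1 rose by 2.12 ± 0.33 (adjusted p = 0.00123) and Nap1l1 by 1.24 ± 0.26 (adjusted p = 0.00528). Atrx, which works with Daxx on H3.3, had -0.0686 ± 0.30 (adjusted p = 0.868) and did not pass.

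Variant histones outside the rule behaved less uniformly. Of 10 tested, 4 were called higher and 0 lower (median 0.34), against 19.7% and 21.1% of all genes. H2afx, the H2A variant phosphorylated at DNA breaks, had 46.4, 69.8 and 48.6 CPM at rest and 538, 539.5 and 918 CPM after LPS, and rose by 3.58 ± 0.34 (adjusted p = 0.000137). The linker variant H1f0 rose by 2.25 ± 0.26 (adjusted p = 0.00033). H3f3b, an H3.3 gene, had 596, 1259 and 961 CPM at rest and 645, 673 and 404 CPM after LPS, and a fitted change of -0.68 ± 0.33 (adjusted p = 0.126), and H3f3a had -0.26 ± 0.32 (adjusted p = 0.537). Neither passed.

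All 14 S-phase replication genes were called higher (median 2.44), against 19.7% of all genes. Pcna, the replication clamp, had 65.8, 95.3 and 98.3 CPM at rest and 310.1, 213 and 296 CPM after LPS, and rose by 1.66 ± 0.29 (adjusted p = 0.00211). Rrm2, a subunit of ribonucleotide reductase, rose by 4.17 ± 0.40 (adjusted p = 0.000141) and Tyms, thymidylate synthase, by 3.73 ± 0.27 (adjusted p = 6.66e-05). The helicase subunits Mcm5 and Mcm3 rose by 2.71 ± 0.27 (adjusted p = 0.000174) and 2.48 ± 0.25 (adjusted p = 0.000186). In resting B-cells the median log2 ratio of these 14 genes to wt was -0.0175 for Eμ-deficient and 0.19 for 3′RR-deficient mice, where the members had 1.26 and 1.06. The single genes spread from -0.52 to 1.71 for Eμ deficiency, 7 of them above and 7 below wt, and from -0.15 to 0.88 for 3′RR deficiency, 11 above and 3 below. Rrm2 and Tk1, the latter named after its values were seen, reached a log2 ratio of at least 1 in the Eμ-deficient resting library. They had 19.2 CPM against 5.89 in wt and 25.8 against 9.53. Of all genes, 12.6% reached such a ratio there. After LPS the median of the 14 genes was -0.25 and 0.13.

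**Figure D5:**
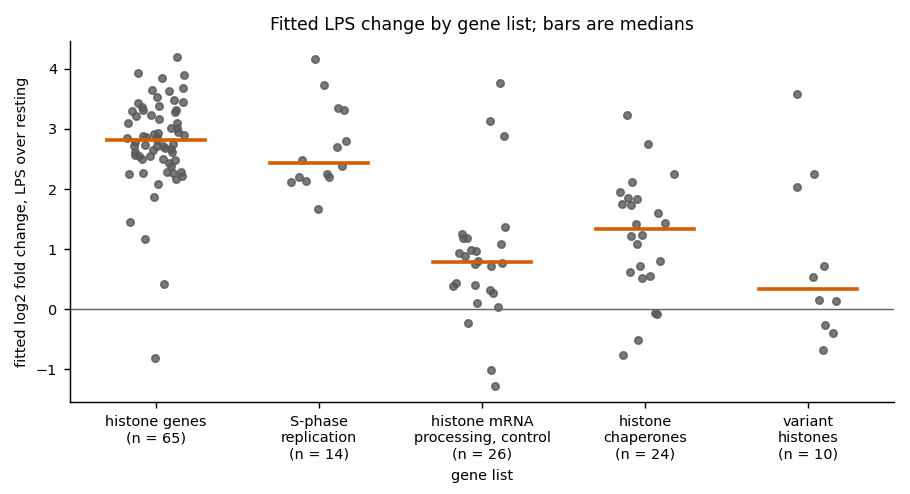
Fitted log2 fold change of LPS over resting (vertical axis) for the 65 tested histone members and for 4 lists of related genes, 1 gene per point and the median as a bar. The histone and S-phase lists lie almost wholly above 0, and the other 3 lists spread to both sides of it.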

How the data were processed

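CD43- splenic B-cells of 3 genotypes, resting or LPS-stimulated, gave 6 libraries, 1 per group. Per the labels and methods, the authors made stranded total RNA libraries after depletion of ribosomal RNA, sequenced pairs of 150 bases, aligned them to mm10 with STAR 2.4.0a and the Ensembl 77 models, and counted fragments per gene name with featureCounts (Subread 1.4.6-p1), with strand option 1 and multi-mapping reads counted at the primary alignment. The deposited values are raw counts. Counts followed the sense strand: of 123 non-coding genes lying by at least 90% in exons of a coding gene on the other strand, with at least 1000 counts per pair, the coding gene was higher per length in 116. RNA was extracted with TRIzol per the labels and with a column kit per the methods. Spike-in RNAs (92 names) took between 4.75% and 7.10% of the counts and entered neither library sizes nor tests.

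The 14600 genes that reached 10 counts in 2 or more libraries were tested with edgeR 4.0.16 (R 4.3.3; TMM, quasi-likelihood test, genotype plus state) and Benjamini-Hochberg adjustment at 0.05. The residual measures departure from additivity, not spread between mice, and both libraries of a genotype may stem from the same mice. Within a state, ratios carry exact conditional binomial 95% intervals for counting error, with counts under 3 set to 3 in medians and counts of members. Alternatives were other scalings, DESeq2 1.42.0, other count filters, removal of trends on GC content and length, and omission of each library. In simulated counts of 14194 genes for LPS over resting, 50 genes each had a log2 change of -2, -1, 1 or 2. No genotype effect was included. All genes with a change of 2, 34% of those with a rise of 1 and 28% of those with a fall of 1 were called. Of the calls, 9.66% were unchanged genes, above the 0.05 of the threshold. With so few changed genes and no genotype effect, these rates need not hold for the data.

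Gene models were from GENCODE M21 and promoters from RefSeq, both GRCm38. The named members were the 4 of highest mean CPM per class and the 3 largest called rises or falls per coefficient. A further 7 were fixed, namely the testis gene Hist1h1t and members of small clusters or described as giving polyadenylated transcripts. From each list, the 3 of highest mean CPM and the 2 with the largest called change were named, and also Slbp, Npat and Casp8ap2. Members and lists were chosen with earlier results of these data known. The result for 1 further B-cell marker is not reported here.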

Additional observations from a re-analysis of the deposited data

Results flagged for a closer look

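With TMM scaling, the log2 ratio to wt lay above 0 at rest and below 0 after LPS for several sums and genes. With 1 library per group, the difference between the states was not tested. For Eμ deficiency, the log2 ratio after LPS minus that at rest was -1.47 for all members, from 1.16 to -0.31. By class it was -1.80 for H1, -1.50 for H2A, -1.87 for H2B, -1.16 for H3 and -1.15 for H4. Under spike-in scaling the Eμ ratio of all members was 0.35 at rest and -0.16 after LPS. That scaling moved every Eμ ratio after LPS by 0.15, where the H3 and H4 ratios with TMM were -0.10 and -0.11. Single genes with a log2 ratio of at least 1 at rest and at most −1 after LPS were Hist1h2bl (-3.18), Hist1h2an (-2.52) and Hist1h3d (-2.59).

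For 3′RR deficiency, the same difference was -1.24 for all members, -2.21 for H1, -1.29 for H2A, -1.63 for H2B and -0.91 for H3. For the sums other than H1 (-1.33 after LPS with TMM), the fall below wt depended on the scaling. Under spike-in scaling the ratio of all members was 0.80 at rest and 0.35 after LPS. That scaling raised every 3′RR ratio after LPS by 0.55, where the H2A, H2B and H3 ratios with TMM were -0.31, -0.22 and -0.0363. The H4 sum lay above wt in both states with TMM scaling, but after LPS its log2 ratio was 0.10 with TMM, -0.75 with the GC trend removed and -0.27 over members sharing no 150-base stretch. The single genes were Hist1h2bq (-2.79), Hist1h2bl (-2.62), Hist1h2ad (-2.33), Hist1h1e (-2.31) and Hist1h3d (-2.25). Hist1h2bl and Hist1h3d appear for both genotypes, which are compared with the same wt libraries.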

How the results depend on the processing

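The count of members higher after LPS lay between 61 and 63 under every alternative. 1 member, Hist3h2a, was called lower with the length trend removed, and 0 to 1 when 1 library was left out (1 without either wt library). For 3′RR deficiency, 1 member was called under spike-in scaling, 5 by DESeq2's Wald test and 6 without the count filter, all higher, and 0 to 24 when 1 library was left out. For Eμ deficiency, 1 member was called without the count filter and 1 with only the 2 genotypes compared, and 0 to 40 when 1 library was left out. The highest of these counts were found without the wt LPS library, where wt has no LPS library in the fit. For spike-in scaling, DESeq2, the fit without the count filter and the fit of 2 genotypes, the share of all genes called is not given. Their counts of members therefore have no general rate beside them. With the length trend removed, the log2 change of the sums after LPS was 1.98 for all members, 1.89 for H2A, 1.88 for H3 and 2.13 for H4. Leaving out 1 library, the log2 change after LPS of the summed members was 2.35 to 3.09, of H1 1.63 to 2.73, of H2A 2.30 to 3.05, of H2B 2.29 to 3.22, of H3 2.41 to 2.99 and of H4 2.63 to 3.20.

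The log2 ratios to wt of all members, Eμ-deficient before 3′RR-deficient, were 0.96 and 0.85 at rest and -0.27 and -0.16 after LPS with total count scaling. They were 0.35 and 0.80 at rest and -0.16 and 0.35 after LPS with spike-in scaling, 1.73 and 1.21 at rest and -0.53 and -0.95 after LPS with the GC trend removed, and 1.24 and 0.93 at rest and -0.47 and -0.49 after LPS over members sharing no 150-base stretch, an alternative chosen after seeing the data. With the length trend removed they were 0.76 and 0.88 at rest, and -0.57 for Eμ deficiency after LPS. After LPS they were -0.35 and -0.21 with DESeq2's size factors, -0.32 and -0.21 with TMM without immunoglobulin genes, and -0.32 and -0.21 without pseudogenes. The 3′RR ratio after LPS was above 0 under spike-in scaling, and the cause was not tested. Spike-in scaling moved the median LPS change of all genes by −0.21, removal of the length trend by −0.13 and omission of the count filter by 0.23. The 3′RR ratio after LPS moved by 0.55 under spike-in scaling for every gene alike.

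The call of Hist1h1c was lost under 7 of 16 alternatives (spike-in scaling, the stricter filter, both trend removals, and without the wt resting library or either Eμ-deficient library), that of Npat under 7 (total count and spike-in scaling, and without any 1 library other than the wt resting one), that of Hist3h2ba without the genotype term and with the length trend removed, and those of Casp8ap2 and Nap1l1 under spike-in scaling. The call of Zcchc11 was lost without the 3′RR-deficient resting library or the 3′RR-deficient LPS library. The uncalled change of Atrx was 0.30 with the length trend removed, and 0.20, 0.00261 and 0.22 without 3 of the libraries in turn (range over all 6 -0.39 to 0.22). That of H3f3a was 0.0384 and 0.0570 without either 3′RR-deficient library (range over all 6 -0.66 to 0.0570). Over all single genes followed, 900 values kept direction and side of the threshold, 20 lost the call, 34 gained one and 6 changed sign. No H3 member is free of shared stretches, so that this alternative gave no H3 value. The genotype term pairs the resting and LPS library of each genotype, and without it 62 members were called higher. By replicate number, no paired analysis was possible because each group holds 1 library. Low counts left 5 members untested. A leave-one-out fit assumes that the lone library of a genotype varies like the others.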

Other observations

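H4 took 26.5%, 24.3% and 24.2% of the member CPM in the resting wt, Eμ- and 3′RR-deficient libraries, and 24.7%, 28.3% and 30.4% after LPS. The share was larger after LPS in both deficient genotypes. In wt it was smaller after LPS, but with the GC trend removed it was 25.3% at rest and 26.1% after LPS. With 1 library per group, these differences were not tested. Of the 4 H2A genes of highest mean CPM, Hist2h2aa2 had the smallest log2 ratios to wt after LPS, -0.0179 (-0.0430 to 0.00706) and 0.00821 (-0.0183 to 0.0347). Hist1h4i, chosen after its values were seen, had 16.5, 45.4 and 20.9 CPM at rest and 207, 272 and 74.6 CPM after LPS, in the order wt, Eμ-deficient, 3′RR-deficient, and was the lowest after LPS in the 3′RR-deficient library.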
